A study of Mus musculus with 8 samples.

Results

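Mouse liver takes up and binds fatty acids through proteins of which 10 are described here, among the 54838 genes counted in 8 RNA sequencing libraries of liver tumour and non-tumour tissue. The genes were taken by name: the fatty acid binding proteins Fabp1, Fabp2, Fabp4, Fabp5 and Fabp7, the uptake receptors Cd36 and Vldlr, the lipase Lpl, and its angiopoietin-like regulators Angptl4 and Angptl8. All 10 were found by symbol, and all 10 passed the filter on low counts. The study addressed liver cancer that arises under an altered diet. Both groups came from male C57BL/6J mice, Wild Type in genotype, that received DEN (diethylnitrosamine, a liver carcinogen) by intraperitoneal injection on day 15 and were given HFD (high-fat diet) together with an item labelled SW for 30 weeks. The labels place the collection 30 weeks after the injection as well. A total of 4 libraries came from liver tumours and 4 from non-tumour liver, so the carcinogen and the diet are shared by both groups, and untreated liver was not analysed here. Nothing in the labels ties the pieces to separate animals, and the p-values therefore cover only the spread between these samples, which may be technical.

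Fatty acid binding proteins are small cytosolic proteins that hold long-chain fatty acids and carry them between membranes, enzymes and the nucleus. Hepatocytes make mostly the liver form, Fabp1, whereas the other forms are best known from the intestine (Fabp2), adipocytes and macrophages (Fabp4), skin and macrophages (Fabp5) and brain (Fabp7). Outside the cell, lipoprotein lipase splits triglycerides of circulating lipoproteins, and its activity is restrained by Angptl4 and Angptl8. Cd36 and Vldlr then take up fatty acids and lipoprotein particles, and several of these genes are known targets of the fatty acid receptors of the PPAR family.

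RefSeq windows from 250 bases before to 50 bases after the gene start (build GRCm38.p6) were at hand for 6 of the 10 genes, with 7 windows in all because Vldlr has a pair of starts. Fabp4, Fabp5, Lpl and Angptl4 had no entry. The stretches upstream of Fabp1, Fabp2 and Angptl8 are shown because Fabp1 was the most abundant of the 10 mRNAs and the other two were the genes whose tumour and non-tumour levels did not overlap. Capitals mark a relaxed DR1 element, the kind of repeat that PPAR and HNF4A proteins bind, in Fabp1, and a core motif of the C/EBP factors in Fabp2 and Angptl8. These stretches are given 5′ to 3′ on the plus strand, at chr6:71199629-71199826, chr3:122894822-122895071 and chr9:21835260-21835509. That of Fabp1 ends 53 bases before the RefSeq start, where the earliest annotated exon begins.
Fabp1: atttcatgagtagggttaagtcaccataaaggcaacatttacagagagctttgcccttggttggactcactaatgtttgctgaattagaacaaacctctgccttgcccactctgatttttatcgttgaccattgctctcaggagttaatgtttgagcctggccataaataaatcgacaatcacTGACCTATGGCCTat
Fabp2: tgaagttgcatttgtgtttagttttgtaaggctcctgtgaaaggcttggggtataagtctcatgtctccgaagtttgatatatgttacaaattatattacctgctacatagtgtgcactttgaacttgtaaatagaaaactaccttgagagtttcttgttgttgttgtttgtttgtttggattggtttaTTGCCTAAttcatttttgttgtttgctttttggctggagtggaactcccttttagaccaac
Angptl8: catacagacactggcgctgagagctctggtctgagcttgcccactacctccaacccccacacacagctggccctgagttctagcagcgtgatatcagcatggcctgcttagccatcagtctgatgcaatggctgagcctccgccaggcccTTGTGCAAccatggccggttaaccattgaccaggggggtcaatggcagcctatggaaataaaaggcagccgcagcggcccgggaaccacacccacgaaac

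Both strands of each 300-base window were searched. The strict DR1 letters AGGTCANAGGTCA were in 0 of the 7 windows and in 0.0396% of the 32851 windows of all genes. With one free base in each repeat, AGGNCANAGGNCA was in 1 of the 7, that of Fabp1, where TGACCTATGGCCT lies on the reverse strand 67 to 55 bases upstream of the start, against 0.381% of all windows. The single repeat AGGTCA was in the windows of Fabp1, Fabp7 and Cd36 and in 16.3% of all windows, and in Fabp1 one of its matches lies inside the relaxed DR1 element. The C/EBP core TTGCNNAA was in the windows of Fabp1, Fabp2, Angptl8 and 1 of the Vldlr starts, against 10.8% of all windows. It lies 61 to 54 bases upstream in Fabp2 and 100 to 93 bases upstream in Angptl8. In Angptl8 the match, TTGCACAA, is on the reverse strand and reads TTGTGCAA in the stretch above. The E-box CACGTG and the sterol element core TCACNCCA were in 0 of the 7 windows and in 7.15% and 4.36% of all windows. These matches describe letters only and no binding was measured.

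The libraries held between 15446690 and 21977052 counted reads. Tumour libraries 2 and 4 were nearly the same library, as were non-tumour libraries 2, 3 and 4: chi-square over genes, divided by its degrees of freedom, was 1.58 to 3.28 for the 4 pairs among these and 71.7 to 165 for the other 24 pairs. They were therefore summed and counted once, which leaves 3 tumour profiles (1, 2/4 and 3) and 2 non-tumour profiles (1 and 2/3/4). Hepatocyte markers, led by albumin, summed to 127012 to 189884 CPM (counts scaled to a common library total) in tumour libraries and 106702 to 122215 CPM in non-tumour libraries, so the labelled tissue was liver in every library. Levels of single libraries are given as CPM scaled by TMM (trimmed mean of M values) over the 8 libraries, and means, SDs and ratios as CPM of the 5 profiles, which have their own scaling and differ by about a percent. In whole tissue, fewer cells of a type and less RNA per cell cannot be told apart.

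With near-identical libraries counted once, edgeR's quasi-likelihood test called 0 of the 10 genes and 0 of the 13650 genes tested (0%) at an adjusted p of 0.05, and the smallest adjusted p was 0.995. At an unadjusted p under 0.05 there were 2 of the 10, Fabp2 and Angptl8, against 3.3% of all genes tested. These were also the 2 genes whose 3 tumour profiles all lay above both non-tumour profiles, a state of 9.47% of the genes tested, and 0 of the 10 had all tumour profiles below, against 8.89%. Both genes had been known to be higher in these tumours when the gene set was drawn up. DESeq2 and limma voom called none of the 10, with 0.0904% and 0% of the genes they tested called. Mean levels were higher in tumour for 9 of the 10 genes, against 52.2% of all genes tested, with a median log2 fold change of 0.68 against 0.01. Without tumour 3, 0 of the 10 were called by edgeR and 0.0357% of the genes tested. Without the filter on low counts edgeR called Fabp2, Fabp5 and Angptl8 (adjusted p = 0.00188, 2.34e-04 and 0.0178), against 1.74% of the genes tested. In that fit the SE of Fabp5 was 0.25, against 0.91 with the filter. Lpl, Angptl4 and Angptl8 also had an SE of 0.25, against 0.79, 0.48 and 0.26. The SE thus hardly followed each gene's own spread, and these calls are given for comparison only.

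What the 10 genes shared was a wide range of levels among samples. The highest profile exceeded the lowest by at least 1 log2 unit in 10 of 10, against 32.0% of genes tested, and the median range was 1.68 log2 units against 0.72. The highest of the 5 profiles was a tumour for each of the 10 genes, but not the same tumour: tumour 1 for 4 genes, tumour 2/4 for 3 and tumour 3 for 3. These profiles were the highest for 20.1%, 12.2% and 29.7% of all genes tested, so most genes were highest in a tumour. Tumour 3 was also the lowest profile for 3 genes and tumour 1 for 5, against 30.8% and 20% of genes tested. The tumours thus stood on both sides of non-tumour liver.

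**Figure D1:**
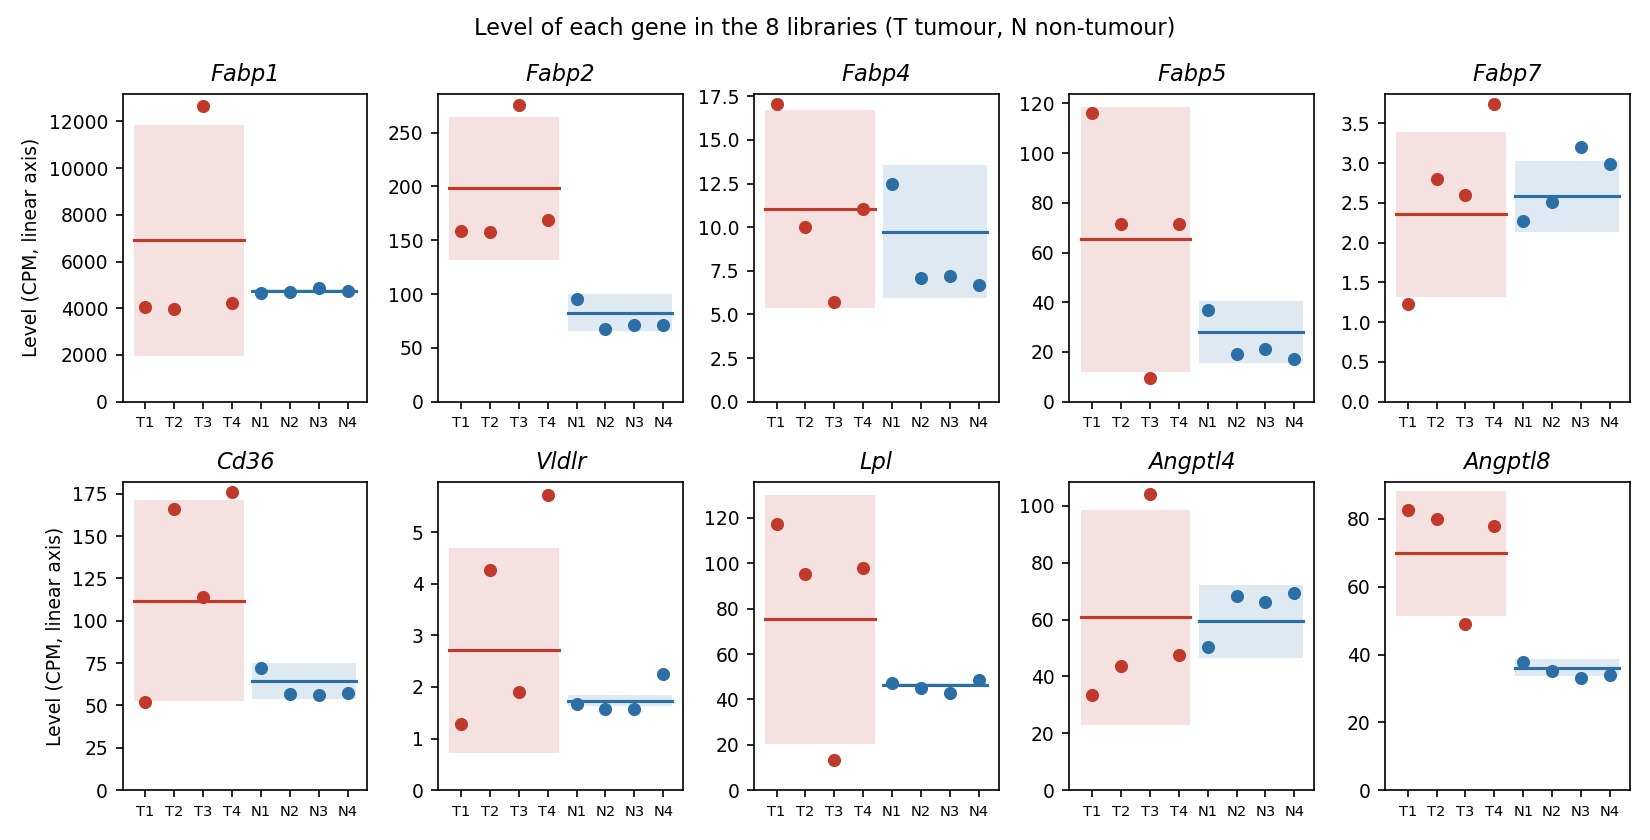
Level of each gene in the 8 libraries (CPM, one panel per gene, each axis starting at 0), with tumour (red, T) and non-tumour (blue, N) libraries as points, and a line and shaded band for the mean ± SD over 3 tumour and 2 non-tumour profiles. Fabp2 and Angptl8 show all tumour libraries above all non-tumour libraries, while tumour 3 is set apart upwards in Fabp1 and downwards in Fabp5 and Lpl.

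Among the binding proteins, Fabp1 (chromosome 6, 71199827 to 71205023, plus strand, GRCm38) carried the bulk of the mRNA. It stood at 4041, 3987, 12664 and 4241 CPM in tumours 1 to 4 and at 4671, 4696, 4873 and 4731 CPM in non-tumour libraries 1 to 4. Tumour 3 held 3.14 times the level of tumour 1 and 3.08 times that of tumour 2/4, whereas those tumours lay slightly below every non-tumour library. Fabp1 made up 1.16% of all counts in tumour 3 and as little as 0.404% elsewhere. The means were 6912 ± 4947 CPM (SD, n = 3) in tumour and 4724 ± 90.6 CPM (SD, n = 2) in non-tumour liver. The log2 fold change was 0.55 (SE 0.58, unadjusted p = 0.381 by edgeR), and without tumour 3 it was -0.22 (adjusted p = 0.847 by edgeR), so its sign rests on that library.

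Fabp2, the form of enterocytes (chromosome 3, 122895072 to 122899506, plus strand), was the second most abundant. Its levels were 159.0, 157.6, 275.8 and 168.4 CPM in tumours 1 to 4 and 94.99, 67.5, 71.7 and 71.2 CPM in non-tumour libraries 1 to 4. The groups did not overlap: the lowest tumour library was above the highest non-tumour library. The means were 198.4 ± 66.3 CPM (SD, n = 3) and 82.6 ± 17.2 CPM (SD, n = 2), a ratio of 2.40. Its log2 fold change was 1.26 (SE 0.33, unadjusted p = 0.00731, adjusted p = 0.995 by edgeR) and 0.96 without tumour 3 (adjusted p = 0.203). The summed level of 9 enterocyte markers was 257 to 292 CPM over the profiles and was almost all Mttp, which hepatocytes also make, while Sis, Alpi, Fabp6, Cdx1 and Cdx2 were at 0 in every library.

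Fabp5, a form of epidermis, macrophages and endothelium (chromosome 3, 10012548 to 10016607, plus strand), varied the most. It measured 116.1, 71.3, 9.45 and 71.5 CPM in tumours 1 to 4 and 36.9, 19.1, 21.1 and 17.1 CPM in non-tumour libraries 1 to 4. All tumours except tumour 3 were above every non-tumour library, and tumour 3 was below every one of them. Tumour 1 exceeded tumour 3 by 12.25-fold, a range that 1.79% of the genes tested reached, and non-tumour 1 exceeded non-tumour 2/3/4 by 1.92-fold. The means were 65.3 ± 53.2 CPM (SD, n = 3) and 27.99 ± 12.5 CPM (SD, n = 2). The log2 fold change was 1.23 (SE 0.91, unadjusted p = 0.224 by edgeR), or 1.74 (SE 0.40) without tumour 3 (adjusted p = 0.253). It was 0.53 without tumour 1 and 0.65 with limma voom. Of the 50-base stretches of all its annotated transcripts, 5.48% also occur in 5 other genes, most in Gm6166. The share in its main transcript alone was not measured. Reads that align to more than 1 place are missing from the counts.

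Fabp4, the adipocyte form (chromosome 3, 10204088 to 10208576, minus strand), followed the same order of tumours at a lower level. Its values were 17.1, 10.02, 5.71 and 11.1 CPM in tumours 1 to 4 against 12.5, 7.11, 7.23 and 6.68 CPM in non-tumour libraries 1 to 4. Tumour 1 was the highest library and tumour 3 the lowest, and the groups overlapped. The means of 11.05 ± 5.66 CPM (SD, n = 3) and 9.74 ± 3.81 CPM (SD, n = 2) gave a log2 fold change of 0.20 (SE 0.47), and of -0.25 without tumour 1. Among 8 adipocyte markers Lep was at 0, Adipoq at no more than 0.0735 CPM and Plin1 at no more than 0.049 CPM, and the summed level of 2322 to 7122 CPM was almost all Car3, which hepatocytes make as well.

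Fabp7, the brain form (chromosome 10, 57784881 to 57788450, plus strand), was counted in only 27 to 76 reads a library. That came to 1.23, 2.80, 2.60 and 3.75 CPM in tumours 1 to 4 and 2.27, 2.51, 3.21 and 3.00 CPM in non-tumour libraries 1 to 4. Tumour 1 was lowest and the rest were mixed between the groups. The means were 2.36 ± 1.04 CPM (SD, n = 3) and 2.58 ± 0.449 CPM (SD, n = 2), with a log2 fold change of -0.13 (SE 0.46) that was 0.18 without tumour 1. The glial markers S100b and Sox10 were at 0 in every library.

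Macrophage and bile duct markers also differed among the tumours and are given beside Fabp5, Fabp4 and Lpl, which some of these cells make. Lipid-associated macrophage markers summed to 319, 190 and 38.9 CPM in tumour profiles 1, 2/4 and 3 and to 57.0 and 58.5 CPM in non-tumour profiles 1 and 2/3/4. Most of that sum was Spp1, Cd63 and Cd9, which other liver cells make too and which were highest in tumour 1 and lowest in tumour 3, as Fabp5, Fabp4 and Lpl were. The other 4 markers of the list, Trem2, Gpnmb, Mmp12 and Itgax, were highest in tumour 2/4, at 0.882, 1.98, 6.37 and 2.35 CPM, and thus did not follow that order. Cholangiocyte markers summed to 199, 92.6 and 3.60 CPM in the tumour profiles and 13.2 and 9.06 CPM in the non-tumour profiles. Tspan8 gave 188.9 and 85.4 CPM of this in tumour profiles 1 and 2/4 and 0.253 CPM in tumour 3. Of the other markers, Sox9 and Epcam were highest in tumour 2/4, at 5.51 and 0.662 CPM, and Muc1 in non-tumour 1, at 0.604 CPM. Krt7 and Krt19 were lower in tumour 2/4 than in tumour 3. Cftr was at no more than 0.317 CPM, its level in tumour 1. Its 0.098 CPM in tumour 2/4 and 0.0632 CPM in tumour 3 were below 0.137 CPM, the lowest level taken as detected. Kupffer cell and macrophage markers summed to 341, 300 and 216 CPM in tumours against 821 and 249 CPM in non-tumour liver, and endothelial markers to 178, 164 and 137 CPM against 290 and 129 CPM. Stellate cell and fibroblast markers lay between 204 and 240 CPM in all profiles. Of the lipid-associated macrophage list 6 of 7 markers, and of the cholangiocyte list 4 of 7, reached 1 CPM in a profile. The part of these cells in the levels of the 3 genes was not tested.

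Of the uptake receptors, Cd36, which admits long-chain fatty acids (chromosome 5, 17781690 to 17888801, minus strand), had 52.1, 166.0, 114.1 and 175.8 CPM in tumours 1 to 4. Non-tumour libraries 1 to 4 had 72.0, 56.7, 56.4 and 57.2 CPM. Tumour 2/4 and tumour 3 were above every non-tumour library and tumour 1 was below every one of them, with tumour 2/4 at 3.29 times tumour 1. The means were 111.9 ± 59.2 CPM (SD, n = 3) and 64.4 ± 10.4 CPM (SD, n = 2), and the log2 fold change was 0.80 (SE 0.48, unadjusted p = 0.142 by edgeR), and 0.35 without tumours 2 and 4.

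Vldlr, the very low density lipoprotein receptor (chromosome 19, 27216484 to 27254231, plus strand), was scarce, at 23 to 116 reads a library. It had 1.28, 4.27, 1.90 and 5.72 CPM in tumours 1 to 4 and 1.67, 1.57, 1.57 and 2.25 CPM in non-tumour libraries 1 to 4. Tumour 2/4 was 3.93 times tumour 1, and the other two tumours lay within or just below the range of non-tumour libraries. The means were 2.71 ± 1.98 CPM (SD, n = 3) and 1.73 ± 0.104 CPM (SD, n = 2). The log2 fold change was 0.67 (SE 0.61, unadjusted p = 0.314 by edgeR), and -0.15 without tumours 2 and 4. Near-identical libraries differed by up to 1.43-fold for this gene, the widest such gap of the 10, so differences under that size are within library error here.

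Lpl, the lipase that works on the vessel wall and is low in adult hepatocytes (chromosome 8, 68880491 to 68907448, plus strand), had the second widest range. Its levels were 117.2, 95.3, 13.2 and 97.8 CPM in tumours 1 to 4 and 47.0, 45.0, 42.6 and 48.6 CPM in non-tumour libraries 1 to 4. Non-tumour liver was even, whereas tumour 1 was 8.86 times tumour 3, a range that 2.71% of genes tested reached. The means were 75.2 ± 54.7 CPM (SD, n = 3) and 46.3 ± 0.832 CPM (SD, n = 2), with a log2 fold change of 0.70 (SE 0.79, unadjusted p = 0.404 by edgeR). Without tumour 3 the log2 fold change was 1.20 (SE 0.17) and still missed the threshold (adjusted p = 0.123 by edgeR), and without tumour 1 it was 0.24. With limma voom in place of edgeR it was 0.14. Of the 50-base stretches of its transcripts, 1.14% also occur in other genes. The muscle markers, another source of Lpl, summed to at most 0.0503 CPM.

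Angptl4, a secreted inhibitor of the lipase (chromosome 17, 33773750 to 33781830, minus strand), ran opposite to Lpl across the tumours. It stood at 33.3, 43.5, 104.3 and 47.6 CPM in tumours 1 to 4 and at 50.5, 68.4, 66.2 and 69.4 CPM in non-tumour libraries 1 to 4. Tumour 3 was above every non-tumour library and the other tumours were below every one of them. The means were nearly equal at 60.8 ± 37.9 CPM (SD, n = 3) and 59.4 ± 12.8 CPM (SD, n = 2), and the log2 fold change of 0.03 (SE 0.48) became -0.60 (SE 0.22) without tumour 3 (adjusted p = 0.505 by edgeR).

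Angptl8, which is induced by feeding and restrains the lipase (chromosome 9, 21835510 to 21837347, plus strand, within the span of Dock6), stood above non-tumour liver in each tumour. It measured 82.5, 80.0, 48.9 and 78.0 CPM in tumours 1 to 4 and 37.9, 35.1, 33.0 and 34.1 CPM in non-tumour libraries 1 to 4. Even tumour 3, the lowest tumour, was above the highest non-tumour library. The means of 69.8 ± 18.3 CPM (SD, n = 3) and 36.1 ± 2.49 CPM (SD, n = 2) differed by 1.93-fold, with a log2 fold change of 0.95 (SE 0.26, unadjusted p = 0.0103, adjusted p = 0.995 by edgeR) and of 1.16 without tumour 3 (adjusted p = 0.111).

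**Figure D2:**
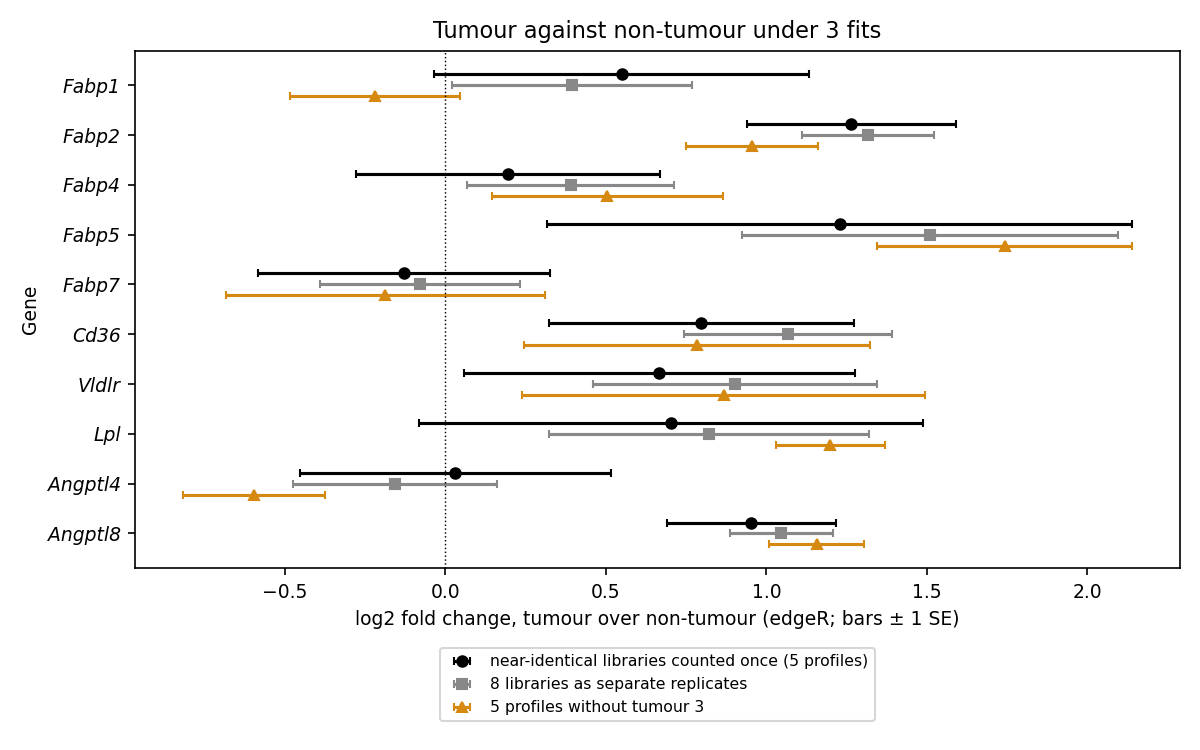
Log2 fold change of tumour over non-tumour liver for each gene (points, with bars of 1 SE) under 3 edgeR fits: near-identical libraries counted once, 8 libraries as separate replicates, and the 5 profiles without tumour 3. Fabp1 and Angptl4 change sign without tumour 3, to -0.22 and -0.60, while Fabp2 and Angptl8 stay between 0.95 and 1.32.

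Treating the 8 libraries as separate replicates, which counts near-identical libraries several times, called Fabp2 (adjusted p = 0.0394 by edgeR) and Angptl8 (adjusted p = 0.0384) among 0.435% of genes tested. With tumour 3 also left out, that fit called 5 of the 10 against 13.6% of the genes tested: Fabp2, Fabp5, Lpl and Angptl8 higher and Angptl4 lower in tumour. These calls rest on repeated libraries and are given for comparison only.

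Ratios within a profile showed how unlike the tumours were, since they do not depend on scaling. Fabp1 had 34.8, 57.6 and 1341 counts per count of Fabp5 in tumour profiles 1, 2/4 and 3, against 126.5 and 250.1 in non-tumour profiles 1 and 2/3/4. The ratio of Lpl to its inhibitor Angptl4 was 3.52, 2.12 and 0.126 in the tumours and 0.932 and 0.668 in non-tumour liver. Tumours 1 and 2/4 thus lay above both non-tumour profiles and tumour 3 below both. The ratio of Lpl to Angptl8 was 1.42, 1.22 and 0.270 in tumours and 1.24 and 1.33 in non-tumour liver, so tumour 3 alone lay outside a narrow band. For the pair of uptake receptors, the ratio of Cd36 to Vldlr stayed between 31.6 and 60.0 in all 5 profiles.

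**Figure D3:**
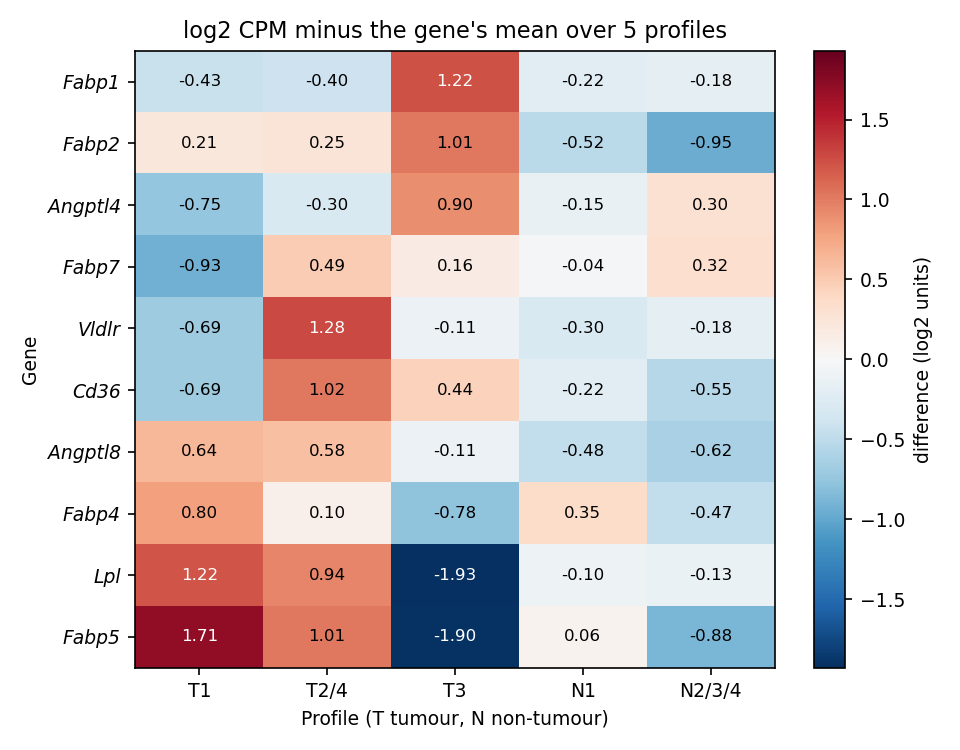
Centred log2 CPM of the 10 genes (rows) in the 5 profiles (columns, T tumour and N non-tumour), each value being the gene's level minus its mean over the profiles. Tumour 3 is the highest column for Fabp1, Fabp2 and Angptl4 and the lowest for Fabp4, Fabp5 and Lpl, and tumour 2/4 is the highest for Fabp7, Vldlr and Cd36.

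Of all genes tested, 29.7% were highest and 30.8% lowest in tumour 3, so the 3 of 10 at each end were near the background. Being highest in tumour 2/4 was less common, at 12.2% of genes tested against 3 of 10 here. Being highest in tumour 1 held for 4 of the 10 and 20.1% of genes tested, and being lowest there for 5 of the 10 and 20%. Fabp1 was among those 5 by a narrow gap, at 4016 CPM against 4096 CPM in tumour 2/4. The order with tumour 1 highest and tumour 3 lowest, that of Fabp4, Fabp5 and Lpl, held for 9.82% of genes tested.

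Levels per transcript length allow the genes to be compared with one another. Mean TPM (counts divided by exon length and then scaled to a common total) over the 5 profiles was 21167 ± 9738 (SD) for Fabp1 and 315 ± 141 (SD) for Fabp2. Then came Angptl8 at 136 ± 67.7, Cd36 at 54.2 ± 35.6, Angptl4 at 33.4 ± 11.1 and Fabp5 at 30.4 ± 26.7 TPM (SD). Lpl at 13.1 ± 9.26, Fabp4 at 4.89 ± 2.29, Fabp7 at 4.03 ± 1.58 and Vldlr at 0.495 ± 0.398 TPM (SD) closed the order. Ranges over the profiles were separate between Fabp1 and Fabp2 and between Fabp7 and Vldlr, and every other pair of neighbours overlapped. Fabp1 made up 97.3% to 99.1% of the summed TPM of the 5 binding proteins. The deposited lengths add all annotated exons, and with the main transcript's length alone the mean of Fabp5 was 109.9 TPM, above Cd36 and Angptl4, that of Lpl 33.3 TPM and that of Fabp4 24.5 TPM, while 7 of the 10 kept their rank.

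**Figure D4:**
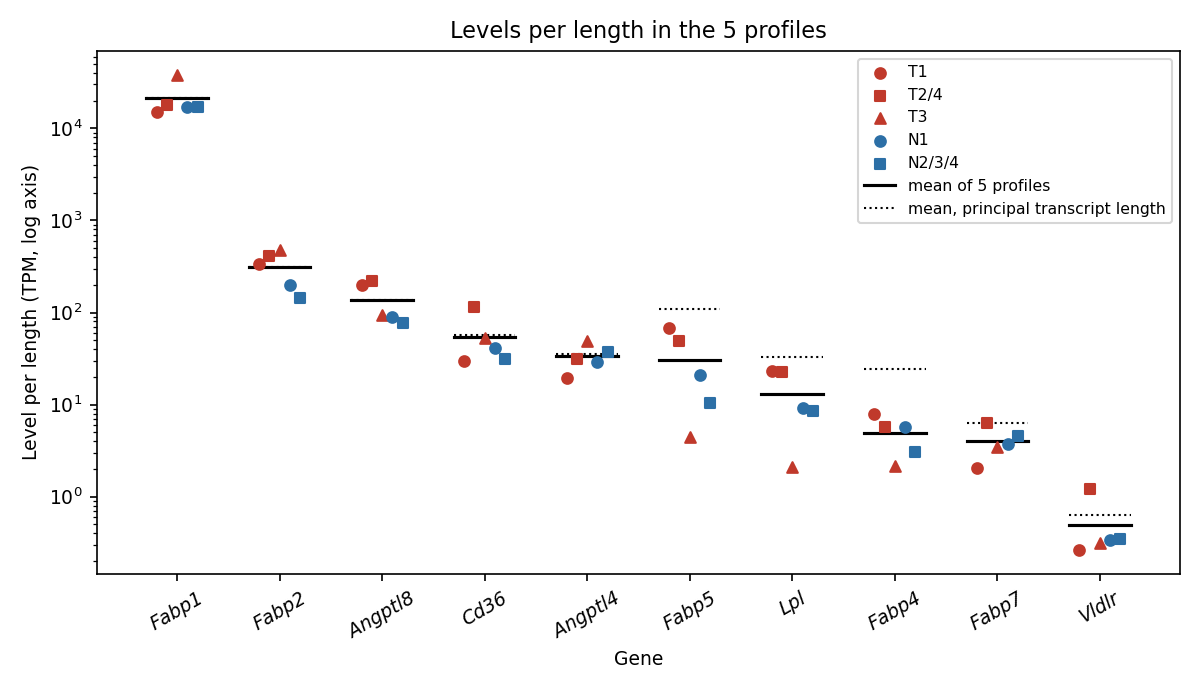
Level per transcript length (TPM, log scale) of the 10 genes in the 5 profiles (red tumour, blue non-tumour), ordered by mean. Solid lines are means with the deposited exon lengths and dotted lines means with the main transcript's length. With the deposited lengths Fabp1 lies above all the others and Vldlr below, and the genes between them overlap with their neighbours from Fabp2 to Fabp7.

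Genes with the most similar course were found among 1090 candidates as those with the smallest root mean square difference of centred log2 CPM over the 5 profiles. For Fabp1 these were Col27a1 (0.0996 log2 units), Cyp2u1 (0.114) and Klf10 (0.166). Fabp2 was nearest to Slc16a11 (0.176), Abcg5 (0.246) and Vnn1 (0.266), and Angptl4 to Abhd6 (0.0818), Hcfc1r1 (0.0916) and Apoa2 (0.106). Fabp5 and Lpl shared Btg2 as their nearest gene, at 0.224 and 0.233, followed by Sgsm1 (0.295) and Ifi27l2b (0.325) for Fabp5 and by Fndc3b (0.235) and Cdh1 (0.271) for Lpl. Vldlr had Mme (0.255), Cd36 itself (0.317) and Dsg1c (0.318), and Cd36 had Slc13a3 (0.263), Acss3 (0.280) and Alas1 (0.296). Fabp7 was nearest to Akr1d1 (0.126), Hectd2os (0.137) and Pparg (0.150), Fabp4 to Cavin2 (0.0813), Vasp (0.101) and Jun (0.103), and Angptl8 to Igkc (0.107), Ifrd1 (0.127) and Pgm3 (0.129). Over only 5 profiles many genes run alike, and the values are a description of these libraries.

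For neighbouring steps of lipid handling, 6 gene lists were examined, and edgeR called 0 genes in each, with 0 to 2 genes a list at an unadjusted p under 0.05. Of 13 tested genes of fatty acid transport and activation, 7 had positive and 6 negative log2 fold changes, with a median of 0.19 that was -0.08 without tumour 3. Mfsd2a, a carrier of lysophospholipids, had 1.63 (SE 0.76) and Acsl3, an acyl-CoA synthetase, 0.49, while the caveolar protein Cav1 had -0.31 and the acyl-CoA synthetase Acsl1 -0.29. Chosen after its values were seen, Acsl4 had 116.7, 84.3 and 30.9 CPM in tumour profiles 1, 2/4 and 3 and 59.3 and 51.0 CPM in non-tumour profiles, the order of Fabp5 and Lpl across the tumours. Tumour 1 was highest and tumour 3 lowest for 3 of the 13, against 9.82% of genes tested. The opposite order held for 2 of the 13, against 9.06%. Of the other binding proteins, 3 of 12 passed the filter. Among them Dbi had a log2 fold change of -0.03 and Scp2 -0.33. All tumour profiles of Scp2 were below both non-tumour profiles, a state of 8.89% of genes tested. The gap was narrow, at 1914 CPM in tumour 3 against 1945 CPM in non-tumour 1.

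The genes of lipoprotein lipolysis and its control split evenly, with 9 positive and 8 negative of 17 tested and a median of 0.00. Apoa4, an apolipoprotein of triglyceride-rich particles, had 3446, 3183 and 1957 CPM in tumour profiles 1, 2/4 and 3 and 2081 and 431 CPM in non-tumour profiles 1 and 2/3/4. Its log2 fold change was 1.19, that of the endothelial lipase Lipg 0.37, that of Sel1l, which helps Lpl leave the endoplasmic reticulum, -0.30, and that of the protease Pcsk6 -0.25. Among 18 tested lipoprotein receptors and their regulators, 5 were positive and 13 negative with a median of -0.23, which was 0.22 without non-tumour 1. The sorting receptor Sorl1 had 0.60, while Lrp5 had -0.58 and the remnant-binding proteoglycan Sdc1 -0.56. Scarb2 (-0.47) had an unadjusted p under 0.05 by edgeR. All tumour profiles were below both non-tumour profiles for 4 of the 18, against 8.89% of genes tested, and above them for 1, against 9.47%. The 4 were Scarb2, Lrp1, Lrp5 and Sdc1. The gap was narrow for Lrp5 (68.0 CPM in tumour 2/4 against 68.3 in non-tumour 2/3/4). It was also narrow for Sdc1 (126.3 CPM in tumour 2/4 against 128.2 in non-tumour 1) and Lrp1 (420.8 CPM in tumour 3 against 429.9 in non-tumour 2/3/4).

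PPAR target genes other than the 10 include enzymes of fatty acid oxidation and proteins of lipid droplets. Of 30 tested, 21 were positive and 9 negative, with a median log2 fold change of 0.30 against 0.01 for all genes tested. Without tumour 3 the median was -0.03, so its sign rests on that library. Fgf21, a fasting hormone of liver, had 1.43 and the lipid droplet protein Cidec 1.22, while the hydroxylase Cyp4a12a had -0.80 and the thioesterase Acot1 -0.46. At an unadjusted p under 0.05 there were Cidec and Vnn1 (1.14). All tumour profiles were above both non-tumour profiles for 5 of the 30, which were Cpt1a, Plin2, Vnn1, Cidec and Fgf21, against 9.47% of genes tested, and below them for Hadha, against 8.89%. The gap to non-tumour 1 was narrow for Fgf21 (5.44 CPM in tumour 3 against 5.39), Plin2 (639.5 CPM in tumour 1 against 634.8) and Cpt1a (311.3 CPM in tumour 3 against 304.6). Gaps of that size are near the difference between scalings, so the count of 5 is uncertain. Tumour 3 was the highest profile for 20 of the 30 (66.7%, against 29.7% of genes tested), and tumour 3 was highest with tumour 1 lowest for 14 (46.7%, against 9.06%). Angptl4 had this last order. Fabp1 did as well, but by a narrow gap, at 4016 CPM in tumour 1 against 4096 CPM in tumour 2/4. Among single libraries, tumour 2 (3987 CPM) was below tumour 1 (4041 CPM). Fabp4, Fabp5 and Lpl had the reverse order, with tumour 1 highest and tumour 3 lowest.

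The nuclear receptors and other regulators of these genes had 8 positive and 11 negative log2 fold changes of 19 tested, with a median of -0.07. Ppara, the main fatty acid receptor of hepatocytes, had 43.1, 61.8 and 40.6 CPM in tumour profiles 1, 2/4 and 3 and 102.1 and 32.9 CPM in non-tumour profiles, a log2 fold change of -0.47 (SE 0.46). Pparg, its adipocyte relative, had 6.61, 17.0 and 14.7 CPM against 9.56 and 13.5 CPM, a log2 fold change of 0.14. The xenobiotic receptor Nr1i3 had 0.76 and the carbohydrate response factor Mlxipl 0.41. The coactivator Ppargc1b had -0.58 and the shared partner receptor Rxra -0.49. All tumour profiles were below both non-tumour profiles for 3 of the 19, Rxra among them, against 8.89% of genes tested. For Rxra the gap was narrow, at 294.1 CPM in tumour 2/4 against 300.9 CPM in non-tumour 2/3/4.

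**Figure D5:**
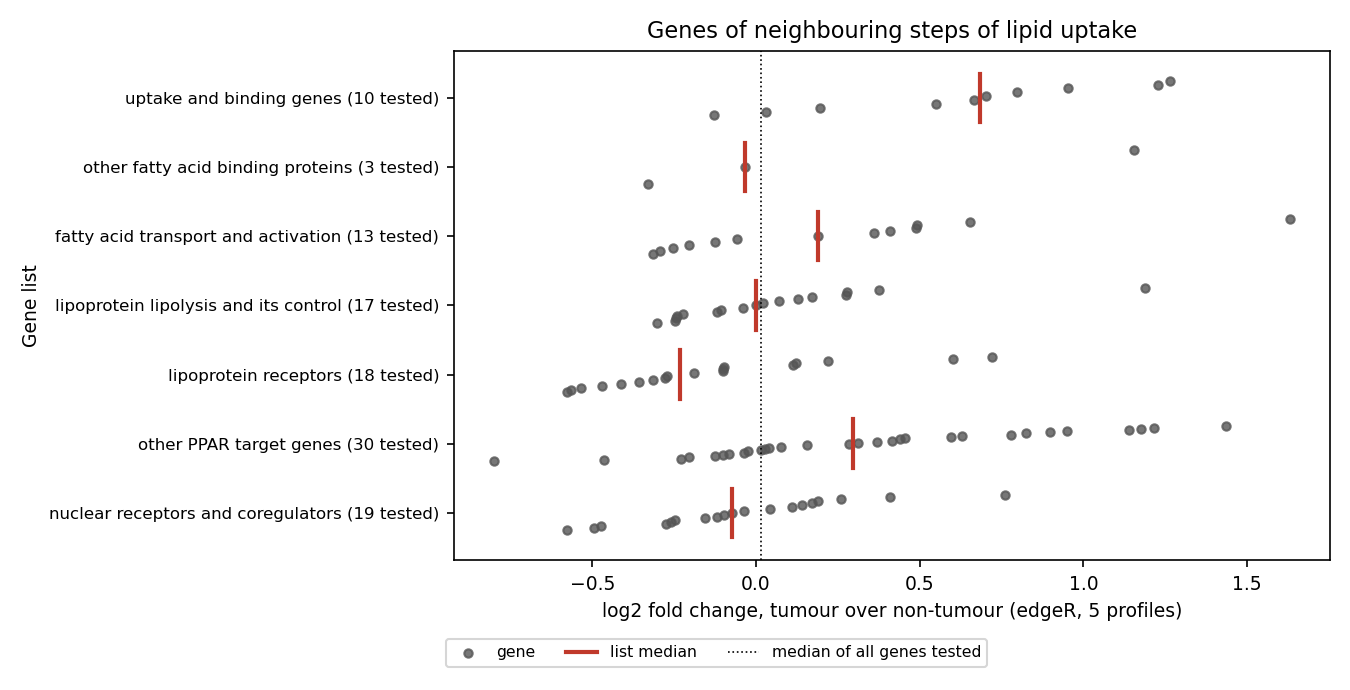
Log2 fold change of tumour over non-tumour liver (edgeR, 5 profiles) for each tested gene of the 10 uptake and binding genes and of 6 lists of neighbouring genes, with the median of each list as a red bar and the median of all genes tested as a dotted line. The 10 genes have a median of 0.68, the PPAR targets 0.30 and the lipoprotein receptors -0.23, and no gene shown passed the threshold.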

How the data were processed

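RNA was extracted from 8 snap-frozen pieces of mouse liver, and mRNA libraries were made, per the labels' protocols. The deposited files hold raw counts of reads per gene, which the authors made with featureCounts 1.6.2 and the GRCm38 gene models of Ensembl release 95, summing exons by gene on the reverse strand without multi-mapping or multi-overlapping reads, per the file headers. Reads were aligned with STAR 2.5.0, per the submitters' processing notes. The files also give the summed exon length of each gene, per the file headers, which was used for TPM. Reads shared between similar genes are thus missing from the counts.

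Here, library pairs were compared by chi-square over genes with at least 20 reads, and pairs whose statistic stayed under 10 per degree were summed and counted once, giving 5 profiles. Genes kept by filterByExpr (minimum count 10, minimum total 15) were tested in R 4.3.3 with edgeR 4.0.16 (TMM, robust quasi-likelihood fit) and p-values were adjusted by Benjamini-Hochberg across every gene tested, at 0.05. Alternatives were the 8 libraries as separate replicates, also with the replicate number as a block, 1 library per near-identical set, other scalings and filters, a prior count, DESeq2 1.42.0, limma voom (limma 3.58.1) and leaving out libraries. Totals of 15446690 to 21977052 reads put 3 counts, the least taken as detected, at 0.137 to 0.194 CPM. This floor covers counting error only.

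The 10 genes, the gene lists and the rule for naming genes were chosen with earlier results of these data known. The rule named all 10, the 2 highest and 2 lowest log2 fold changes of each list with a mean of at least 1 CPM, Ppara and Pparg, and for each of the 10 the 3 nearest genes with a mean of at least 10 CPM and a range of at least 1 log2 unit. The promoter motifs, the main transcript length and the fits of 8 libraries without tumour 3 or non-tumour 1 were added after the data were seen. Of the marker genes, Tf was unmatched. Some genes that the rule names are not reported here.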

Additional observations from a re-analysis of the deposited data

How the results depend on the processing

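Of 229 alternative values for the 10 genes, 203 kept their direction and side of the threshold, 11 passed the threshold only there and 15 had the other sign. Leaving out tumour 2, tumour 4 or non-tumour 2, 3 or 4 alone keeps the same 5 profiles. Likeness of those fits to the main fit is therefore largely built in, and it raises the count of 203. The main count of 0 genes called was 56 with the 8 libraries as separate replicates, 427 without the filter on low counts, 11 with DESeq2 and 0 to 5 when a library or near-identical set was left out (5 without tumour 3). The separate libraries gave 1798 without tumour 3 and 766 without non-tumour 1, both fits chosen after seeing the data. Of the 10 genes, these fits called 2 (8 libraries, 0.435% of genes tested), 3 (no filter: Fabp2, Fabp5 and Angptl8, 1.74%) and 5 (8 libraries without tumour 3, 13.6%). The 8 libraries without non-tumour 1 called 2, and the share behind the 766 genes of that fit was not worked out. Of the neighbouring lists, 5 genes were called without the filter. The 8 libraries without tumour 3 called 24 and those without non-tumour 1 called 13. These list counts were not set against a share and are no result about the lists. Angptl4 had log2 fold changes of -0.16 with 8 libraries, -0.016 without the filter, -0.084 with limma voom, -0.60 without tumour 3, -0.18 without non-tumour 1, and -0.62 and -0.26 with 8 libraries less those. Fabp1 was at -0.22 without tumour 3 in both kinds of fit. Fabp4 was at -0.25 and Fabp7 at 0.18 without tumour 1, and at -0.17 and 0.06 without the set of non-tumour 2, 3 and 4, and Vldlr was at -0.15 without the set of tumour 2 and 4. Leaving out a library or set gave ranges of -0.22 to 0.82 for Fabp1, -0.25 to 0.65 for Fabp4, -0.46 to 0.18 for Fabp7, 0.53 to 1.77 for Fabp5, 0.35 to 1.14 for Cd36, 0.24 to 1.20 for Lpl, -0.15 to 1.00 for Vldlr and -0.60 to 0.33 for Angptl4. The cause of these shifts was not tested, except that the separate libraries count near-identical ones repeatedly. The replicate block, fitted to the 8 libraries, called 0 genes (2264 at an unadjusted p under 0.05 by edgeR), with Fabp2 at 1.29 (adjusted p = 0.0545), Angptl8 at 1.02 (adjusted p = 0.0518) and Angptl4 at -0.29. The labels do not say whether same-numbered libraries share an animal. Deviations of same-numbered libraries correlated at 0.35, -0.147, 0.286 and -0.124 for numbers 1 to 4. Of the 4 numbers, 2 matched best with themselves, which were 1 and 3. Non-tumour 2, 3 and 4 are near-identical, as are tumour 2 and 4, so the best match among these numbers cannot decide the question. Mean levels were higher in tumour for 7 to 9 of the 10 genes over all alternatives. Of 23 alternatives, list medians moved by more than the spread between profiles in 9 for fatty acid transport and activation, 5 for other binding proteins, 2 for lipoprotein receptors and 0 for the other 3 lists. Those 3 include the PPAR targets, whose median went from 0.30 to -0.03 without tumour 3. That shift counted as unmoved because the spread for this list was 0.41. The stricter filter dropped Vldlr. With 3 and 2 profiles, precision was limited by their number, and for Fabp7 and Vldlr by reads too.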
